A study of Mus musculus with 6 samples.

Results

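The genes described here mark the mesenchyme around the developing eye and the cranial neural crest. They are 8 genes, Alx1, Alx4, Foxc1, Twist1, Prrx1, Pdgfra, Col1a2 and Col3a1, and were taken as every probe whose platform symbol is one of these names, which gave 14 of the 46632 probes. From mouse embryos of embryonic day 9.5, lens ectoderm was cut by laser from frozen sections and profiled on Illumina BeadChips, 3 wild-type (WT) and 3 knockout (KO) samples, all on a mixed C57BL6 and FVB background. The KO samples, titled ALK23, come from embryos with type I bone morphogenetic protein (BMP) receptors deleted in the lens placode. The proteins ALK2 and ALK3 are encoded by Acvr1 and Bmpr1a. The Cre driver, the deleted exons and whether WT embryos carried Cre are not given here by the labels. The tissue label names future lens or retina, and the series text speaks of pooled RNA, so the spread that the p-values rest on may be partly technical.

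The head mesenchyme around the eye comes from the neural crest and the cranial mesoderm. It lies next to the lens placode and the optic vesicle, and later gives rise to cornea, iris stroma, sclera and eyelid tissue. Its cells are known for homeodomain, forkhead and basic helix-loop-helix factors, for the receptor of platelet-derived growth factor (PDGF) and for fibrillar collagens. The placode itself is an epithelium, and Pdgfra is also known to be expressed in lens epithelium. In such bulk samples, fewer cells of a type and less RNA per cell cannot be told apart.

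On the arrays, 7 of the 8 genes were measured, and most of their probes ranked WT 1, WT 3 and KO 1 above WT 2, KO 2 and KO 3, across both genotypes. Pdgfra had the opposite order. No member differed between KO and WT beyond the spread between arrays. A probe was tested where its detection p-value, the share of negative controls at least as bright, was below 0.05 on at least 3 of the 6 arrays. This held for 11 of the 14 member probes and for 20959 probes in all. Levels below are background-corrected, quantile-normalized log2 intensities. The 3 probes below the filter are described but not tested.

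Promoters are shown for Twist1, Col1a2 and Col3a1, whose probes split the arrays in the same way, and for Pdgfra, whose probe split them the opposite way. They run from 250 bases before to 50 after the annotated start in RefSeq's GRCm38.p6 table, which held 6 of the 8 members. Capitals mark the E-box CANNTG, which factors of the Twist1 family bind, the homeodomain core TAAT or ATTA, and the TATA box TATAAA, each searched on both strands. E-boxes are read the same way on both strands, and overlapping matches run together.
Twist1, chr12:33957421-33957720 (plus strand): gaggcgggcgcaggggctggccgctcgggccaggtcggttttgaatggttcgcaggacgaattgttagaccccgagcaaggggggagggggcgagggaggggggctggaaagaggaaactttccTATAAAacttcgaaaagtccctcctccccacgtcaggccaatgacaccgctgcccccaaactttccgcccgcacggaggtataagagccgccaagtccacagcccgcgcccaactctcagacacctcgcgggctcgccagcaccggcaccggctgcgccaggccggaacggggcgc
Col1a2, chr6:4505368-4505667 (plus strand): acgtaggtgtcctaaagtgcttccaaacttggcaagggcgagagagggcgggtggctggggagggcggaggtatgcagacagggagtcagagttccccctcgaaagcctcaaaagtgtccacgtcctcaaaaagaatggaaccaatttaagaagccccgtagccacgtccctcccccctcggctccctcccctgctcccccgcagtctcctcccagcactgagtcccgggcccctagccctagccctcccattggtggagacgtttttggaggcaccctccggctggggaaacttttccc
Col3a1, chr1:45311288-45311587 (plus strand): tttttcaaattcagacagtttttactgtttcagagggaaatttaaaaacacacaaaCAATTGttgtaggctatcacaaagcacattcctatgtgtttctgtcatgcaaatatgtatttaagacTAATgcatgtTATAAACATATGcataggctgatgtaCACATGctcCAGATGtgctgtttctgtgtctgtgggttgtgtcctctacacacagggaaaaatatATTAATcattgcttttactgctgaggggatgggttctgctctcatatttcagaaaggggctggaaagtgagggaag
Pdgfra, chr5:75152001-75152300 (plus strand): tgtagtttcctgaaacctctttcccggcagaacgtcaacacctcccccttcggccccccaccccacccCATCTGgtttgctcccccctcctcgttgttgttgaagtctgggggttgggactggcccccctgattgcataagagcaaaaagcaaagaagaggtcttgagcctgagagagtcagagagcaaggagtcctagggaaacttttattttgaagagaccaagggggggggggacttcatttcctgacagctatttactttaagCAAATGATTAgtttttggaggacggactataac

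Of all 32851 promoter windows of this length, 72.3% held an E-box, 58% a homeodomain core and 13.6% a TATA box. The Twist1 window held 1 TATA box and 0 E-boxes. The Col1a2 window held none of the 3 motifs. Col3a1 had 4 E-boxes, 3 homeodomain cores and 1 TATA box, and Pdgfra 2 E-boxes and 1 homeodomain core. No motif of the 3 was found in all of Twist1, Col1a2 and Col3a1, and these matches are a description of letters only.

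Alx1 and Alx4 encode paired-type homeodomain factors of the frontonasal and periocular mesenchyme. In the order of replicates 1, 2 and 3, Alx1 was at 7.53, 5.32 and 7.92 on the WT arrays and 6.82, 5.81 and 5.58 on the KO arrays, and values below follow this order. WT 2 and KO 3 did not detect it, which left 2 arrays of each genotype. The highest levels were those of WT 1 and WT 3, the lowest that of WT 2, so the WT arrays spanned the whole KO range. The WT mean was 6.92 ± 1.40 and the KO mean 6.07 ± 0.66 (SD, n = 3 each). The log2 fold change of Alx1, KO minus WT, was -0.86 (95% interval -2.46 to 0.75, limma adjusted p = 0.989). It was -0.55 and -0.52 under the other normalizations and 0.40 with the submitters' processed values, which were floored at 1 before taking log2. With single arrays left out, it lay between -1.66 (without WT 2) and -0.36 (without WT 3).

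Alx4 had 2 tested probes. The brighter, ILMN_2487824, was at 9.67, 5.44 and 9.63 on the WT arrays and 9.77, 8.18 and 7.30 on the KO arrays. WT 1, WT 3 and KO 1 lay between 9.63 and 9.77, while WT 2 was not detected and lay 4.33 below the highest array. Its log2 fold change was 0.17 (interval -2.37 to 2.71, limma adjusted p = 0.996). The dimmer probe, ILMN_2708458, was at 7.46, 5.17 and 6.43 on the WT arrays and 5.94, 5.84 and 5.27 on the KO arrays, with a log2 fold change of -0.67 (interval -1.88 to 0.54, limma adjusted p = 0.989). The dimmer probe was not detected on WT 2 or KO 3. On KO 1 and KO 2 it lay close to the lowest level among detected probes there (5.63 and 5.71). Both probes put the same 3 arrays highest, in a different order. Their fold changes differed in sign, but that of the dimmer probe rests partly on levels near or below detection. The value of the brighter probe also turned with single arrays, to -1.23 without WT 2 and -0.51 without KO 1.

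Prrx1, a paired-related homeobox gene of limb and craniofacial mesenchyme, was followed by 4 probes that did not behave alike. The brightest, ILMN_1248338, is annotated to the cDNA clone AK038524 and was at 8.80, 8.75 and 8.48 on the WT arrays and 8.84, 8.84 and 8.47 on the KO arrays. These 6 values spanned only 0.37 log2 units and did not follow the split of the arrays. ILMN_1227686, annotated to the RefSeq transcript NM_011127, was at 10.28, 5.53 and 9.10 on the WT arrays and 8.28, 7.30 and 7.25 on the KO arrays, a span of 4.75. It was not detected on WT 2. Of the member probes it had the widest span, although the brighter probe of the same gene had the narrowest among those tested.

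The other Prrx1 probes, ILMN_2678094 and ILMN_1234976, are annotated to the second RefSeq transcript, NM_001025570. ILMN_2678094 was at 8.55, 7.08 and 7.62 on the WT arrays and 8.12, 6.28 and 6.60 on the KO arrays. ILMN_1234976 was at 7.40, 7.39 and 7.83 on the WT arrays and 7.99, 5.90 and 6.59 on the KO arrays. On both, KO 2 and KO 3 were the lowest arrays and WT 2 stood above them. On the NM_011127 probe WT 2 was the lowest by far. Log2 fold changes of Prrx1 were 0.04 (interval -0.55 to 0.63) for the brightest probe and -0.69 (-3.09 to 1.71), -0.75 (-2.16 to 0.66) and -0.72 (-2.04 to 0.61) for the others in the order given. The limma adjusted p was 0.995 for the first and 0.989 for the other three. The 0.04 had the opposite sign without KO 1, without KO 2 or without WT 3.

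Twist1, a basic helix-loop-helix factor needed for head mesenchyme and cranial neural crest, was detected on all 6 arrays. It was at 8.50, 6.76 and 8.57 on the WT arrays and 8.30, 6.75 and 6.71 on the KO arrays. The values formed 2 sets with nothing between 6.76 and 8.30. WT 2 lay with KO 2 and KO 3, and KO 1 with WT 1 and WT 3. The WT mean was 7.94 ± 1.02 and the KO mean 7.25 ± 0.91 (SD, n = 3 each). The log2 fold change of Twist1 was -0.69 (interval -2.17 to 0.79, limma adjusted p = 0.989).

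Foxc1, a forkhead factor required for the periocular mesenchyme and the anterior segment, was the member that did not pass the filter. Its single probe was at 5.80, 5.35 and 5.18 on the WT arrays and 5.25, 5.86 and 5.40 on the KO arrays. Only WT 1 and KO 2 were detected, each just above the lowest level among detected probes there (5.78 and 5.71). The array order was not that of the other factors. At this signal over background, a genotype difference in Foxc1 was not detectable.

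Pdgfra encodes the receptor through which mesenchymal and crest cells respond to PDGF. Its bright probe, ILMN_1235932, was at 9.00, 10.16 and 9.31 on the WT arrays and 9.29, 10.26 and 10.67 on the KO arrays. Here WT 2, KO 2 and KO 3 were the highest arrays and WT 1 the lowest, so the 3 arrays that were high for Twist1 were the low ones for Pdgfra. The WT mean was 9.49 ± 0.60 and the KO mean 10.07 ± 0.71 (SD, n = 3 each). The log2 fold change of Pdgfra was 0.58 (interval -0.34 to 1.50, limma adjusted p = 0.989), and the genotypes overlapped. The second Pdgfra probe, annotated to the clone AK011378, was detected on 0 arrays, at 5.38 to 5.65.

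The collagen genes Col1a2, which encodes a chain of type I collagen, and Col3a1, which encodes type III collagen, were detected on every array by 1 probe each. Col1a2 was at 8.31, 6.86 and 8.45 on the WT arrays and 7.83, 6.81 and 7.27 on the KO arrays. Col3a1 (ILMN_1258629) was at 9.23, 6.92 and 9.24 on the WT arrays and 8.98, 5.99 and 7.15 on the KO arrays. Both ranked the 6 arrays in the same order, from WT 3, WT 1 and KO 1 down to KO 3, WT 2 and KO 2. Col1a2 spanned 1.64 log2 units and Col3a1 3.25.

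Log2 fold changes were -0.57 for Col1a2 (interval -1.80 to 0.66) and -1.09 for Col3a1 (-3.05 to 0.87), each with a limma adjusted p of 0.989. A second Col3a1 probe, ILMN_2683958, did not pass the filter. It was at 5.48, 5.84 and 7.92 on the WT arrays and 5.81, 5.30 and 5.51 on the KO arrays, detected on WT 3 and KO 1 only. WT 1, high on the first Col3a1 probe, was not detected on this one.

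**Figure D1:**
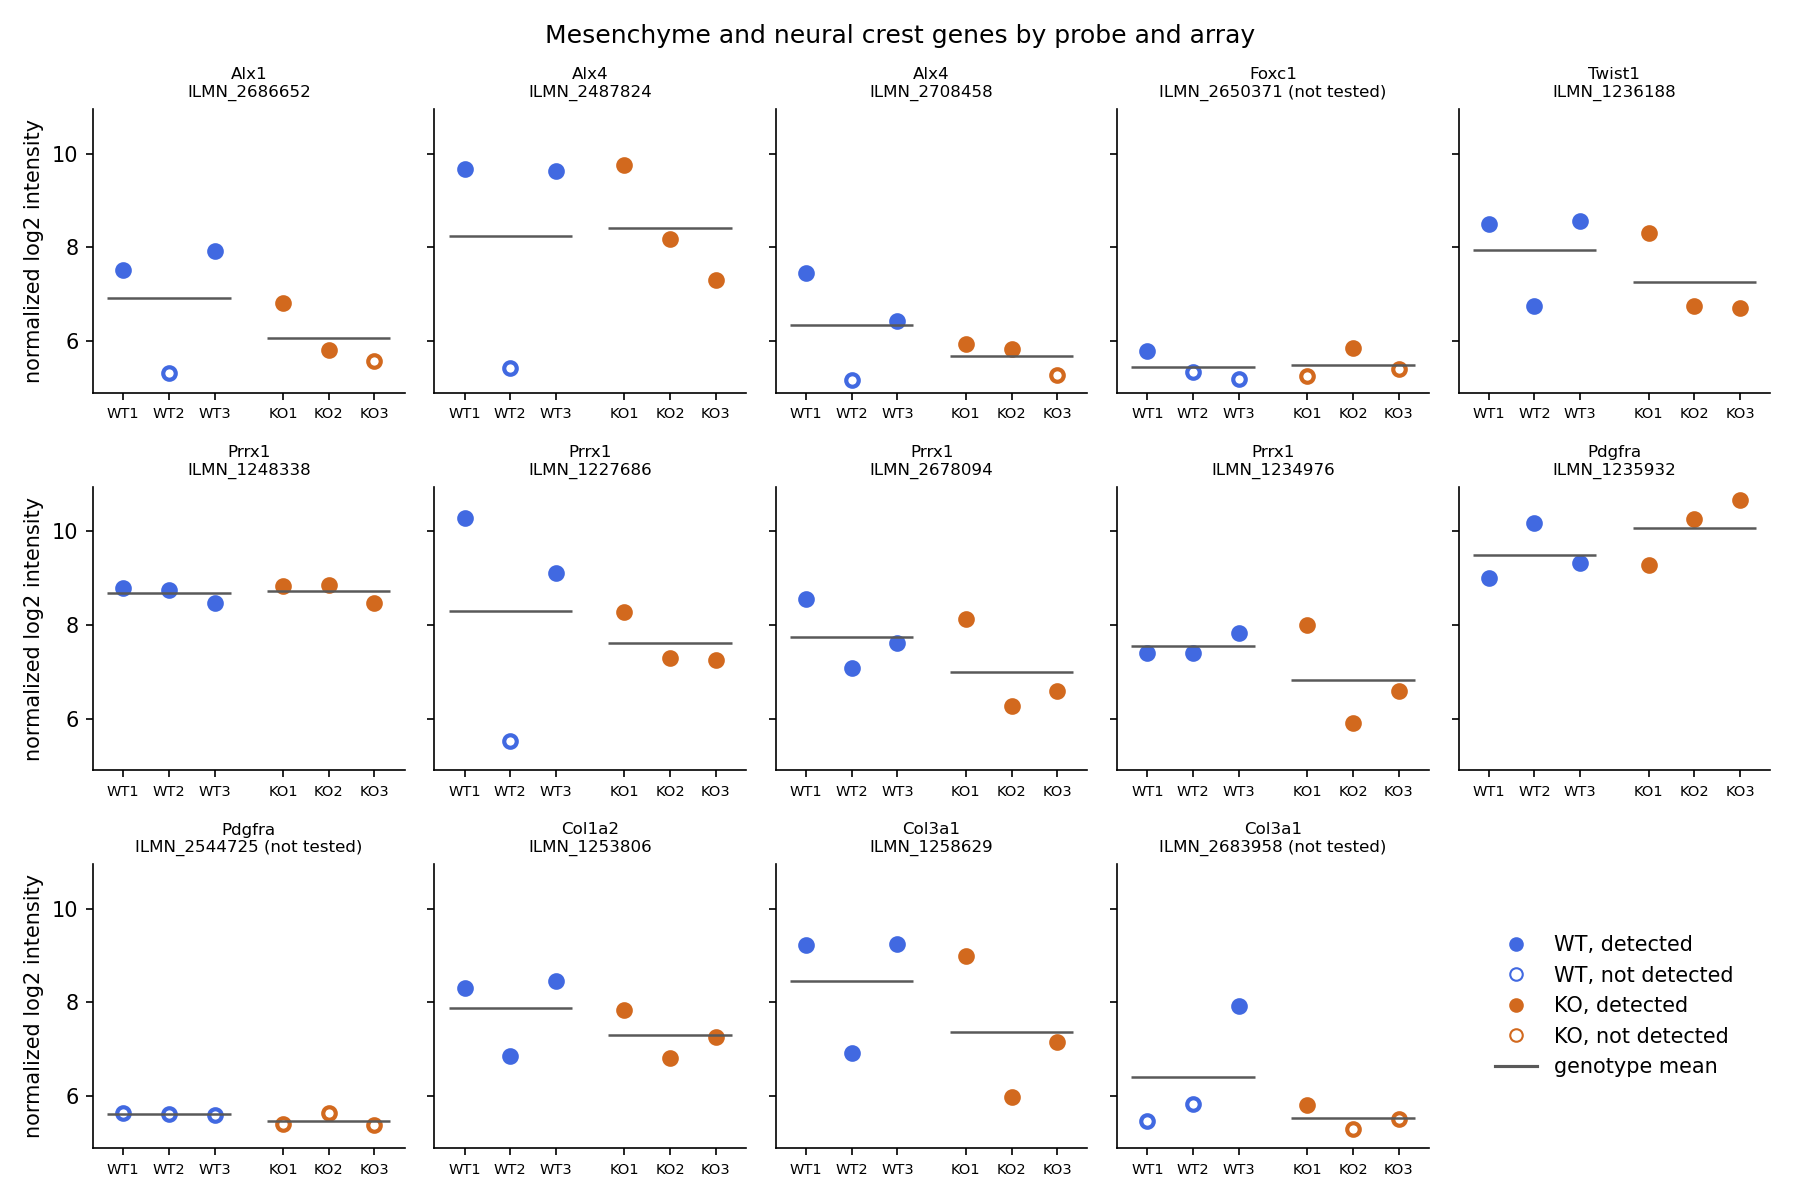
Normalized log2 intensity (vertical axis) of the 14 member probes on the 3 WT (blue) and 3 KO (orange) arrays, with the genotype means as lines and open circles where the probe was not detected. For 9 of the 11 tested probes the 3 highest points are WT 1, WT 3 and KO 1, whereas Pdgfra has WT 2, KO 2 and KO 3 highest and the brightest Prrx1 probe spans 0.37.

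In the comparison of KO with WT, 4 of the 7 measured genes had a lower and 3 a higher mean in KO on their brightest probe, with a median log2 fold change of -0.57. That median lay at -0.45 and -0.43 under the other normalizations and at 0.05 with the submitters' processed values (floored at 1). With single arrays left out, it lay between -1.23 (without WT 2) and -0.28 (without WT 3). Over all 11 tested probes, 8 were lower and 3 higher, with a median of -0.69, where the median of all tested probes was 0.01 and 49.1% of them had a lower mean in KO. Probes of the same gene, and genes read on the same arrays, are not independent, so these counts are a description. Of the members, 0 passed a limma adjusted p of 0.05, and across all tested probes 0% passed. At an unadjusted p below 0.05 there were 0 member probes, where 4.49% of all tested probes (941) lay below it, and the lowest unadjusted p of a member was 0.184 (limma). WT and KO arrays did not overlap for 0 of the 11 member probes, against 9.82% of all tested probes. A difference of 2-fold or more in either direction lay outside the interval of 1 of the 11, the brightest Prrx1 probe. For the others the data allow a 2-fold difference in at least one direction.

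**Figure D2:**
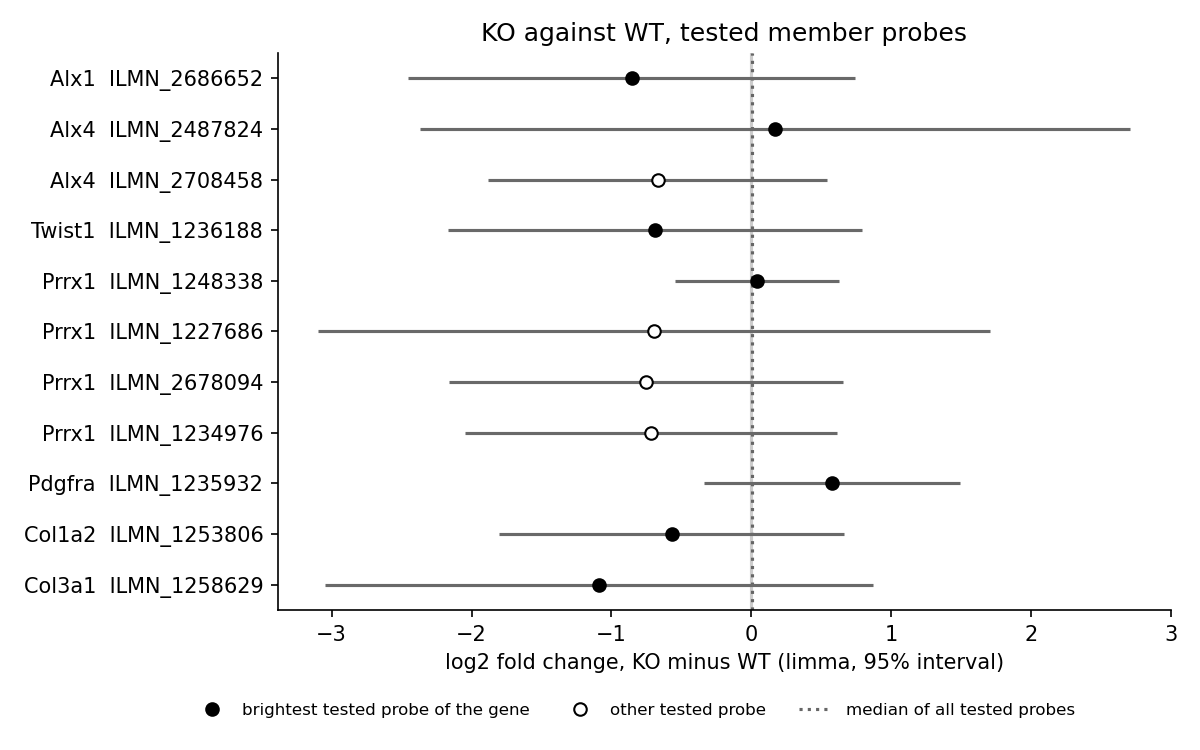
Log2 fold change, KO minus WT, with the 95% interval of the limma fit (horizontal axis) for the 11 tested member probes. Filled circles are the brightest tested probe of each gene, open circles its other tested probes, and the dotted line is the median of all tested probes (0.01). Every interval includes 0, from the narrow one of the brightest Prrx1 probe (-0.55 to 0.63) to that of the brighter Alx4 probe (-2.37 to 2.71).

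The spread within a genotype was wide for these genes. The within-genotype SD, pooled over WT and KO, was above the median of all tested probes (0.43) for 10 of the 11 member probes and above their 90th percentile (0.92) for 5. It reached 1.93 for the brighter Alx4 probe, 1.80 for the NM_011127 probe of Prrx1 and 1.43 for Col3a1, and was 0.19 for the brightest Prrx1 probe. Tested member probes had 18 to 65 beads an array, and the standard error over beads was between 2.17% and 7.72% of the intensity, a measure of bead noise within an array alone.

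The order of the arrays recurred from gene to gene. WT 1, WT 3 and KO 1 were the 3 highest arrays for 9 of the 11 tested member probes, which belong to 6 of the 7 genes. On the brightest probe alone, this held for 5 of the 7 genes. Of all tested probes, 7.06% had these 3 arrays highest and 6.99% had WT 2, KO 2 and KO 3 highest, as Pdgfra did. Among the 20 possible sets of 3 arrays, these ranked 1 and 3 by this share over all tested probes. The order was noticed in these data, so the counts are a description. More of these high arrays are WT than KO, so a probe with this order tends to have a lower KO mean. The count was 9 under each of the other normalizations and in the submitters' processed values too.

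Relations between the genes were computed over the 6 arrays for all 21 pairs of the 7 measured genes, on the brightest probe. The correlation was above 0 for 12 of the 21 pairs, where 50.4% of the pairs of all tested genes lay above 0. Among the 15 pairs without Pdgfra, 12 were above 0, and the 3 others involved the brightest Prrx1 probe. Pdgfra was set apart after its values were seen, and the pairs reuse the same 6 arrays, so this count is a description. Pdgfra correlated below 0 with all 6 other genes. With each gene's tested probes averaged, 15 of the 21 pairs were above 0.

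Pooled coefficients are given only where neither gene fell into separate sets of arrays, that is, where no gap between neighbouring values exceeded 0.5 of the gene's range, a limit set after the values were seen. Twist1, Col3a1, Pdgfra and the brightest Prrx1 probe fell into such sets, and with fewer than 6 arrays in a set no coefficient within a set is given for them. The 3 remaining pairs join Alx1, Alx4 and Col1a2. Alx1 and Col1a2 had Pearson's r = 0.96 (exact permutation p = 0.014, adjusted over the 21 pairs 0.095) and Spearman's rho = 0.83 (exact p = 0.058, adjusted 0.17). Alx1 and Alx4 had r = 0.87 (exact permutation p = 0.033, adjusted 0.12) and rho = 0.77 (exact p = 0.10, adjusted 0.24). Alx4 and Col1a2 had r = 0.81 (exact permutation p = 0.058, adjusted 0.12) and rho = 0.60 (exact p = 0.24, adjusted 0.34).

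None of these 3 pairs passed after adjustment, nor did any other pair, with a lowest adjusted exact permutation p of 0.058 for Pearson's r over all 21 pairs. Without the 2 arrays farthest from the median of the first gene, r was 0.85, 0.93 and 0.90 in the same order. After each genotype's mean was subtracted, it was 0.95, 0.99 and 0.92. All 3 genes had WT 1, WT 3 and KO 1 highest, a split that crosses the genotypes. Neither step removes this shared split, so neither can tell whether the genes co-vary apart from it. The pairs share 6 libraries. Alx1 was not detected on WT 2 or KO 3, nor Alx4 on WT 2, and Alx1 was close to the lowest detected level on KO 2. With WT 1 and WT 3 left out, the r of 0.85 and 0.93 rest largely on these low Alx1 levels.

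Markers of other tissues moved over the same arrays. The mean level of the 7 measured mesenchyme genes was 8.72, 7.17 and 8.80 on WT 1 to WT 3 and 8.55, 7.52 and 7.59 on KO 1 to KO 3. The mean of 12 of 14 lens and surface ectoderm genes was 9.26, 9.64 and 9.34 in WT and 9.21, 9.77 and 9.57 in KO, lowest on the arrays where the mesenchyme genes were high. Of these 12 genes, 6 had WT 2, KO 2 and KO 3 as their highest arrays and 2 had WT 1, WT 3 and KO 1. Maf, which encodes a transcription factor of lens fibre cells, was at 7.90, 11.65 and 9.06 on the WT arrays and 7.82, 10.99 and 10.79 on the KO arrays, with the same 3 arrays on top as Pdgfra.

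Among the other lists, 8 of 13 optic vesicle and retina genes averaged from 6.04 to 8.53 in WT and from 6.52 to 7.67 in KO, with the top at WT 3 and the bottom at WT 2. Endothelial genes (5 of 8) ranged from 6.20 to 7.82 in WT and from 6.28 to 8.03 in KO, and were likewise highest on WT 1, WT 3 and KO 1. Blood genes (6 of 8) ran from 8.66 to 9.97 in WT and from 8.28 to 9.44 in KO, and neuronal genes (4 of 6) from 6.59 to 7.33 and from 6.66 to 7.16. The means of the optic vesicle and neuronal lists were also highest on WT 1, WT 3 and KO 1, and that of the blood list was not. By single gene, 3 of the 8 optic vesicle, 2 of the 5 endothelial, 1 of the 4 neuronal and 1 of the 6 blood genes had this order. Hes5 and Sox1 of the optic vesicle list, Tek and Tie1 of the endothelial list, Gata1 of the blood list and Dcx of the neuronal list were detected on 0 arrays. The part of these tissues in the mesenchyme values was not tested. The arrays detected 39.6% to 45.7% of all probes, WT 2 the fewest. The deleted receptor genes do not check the genotype labels here, as where their probes lie relative to the deletion is not known. Acvr1 ran from 6.63 to 8.73 in WT and from 6.49 to 7.51 in KO, and Bmpr1a from 9.18 to 9.86 and from 9.60 to 9.81, on their brightest probes.

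**Figure D3:**
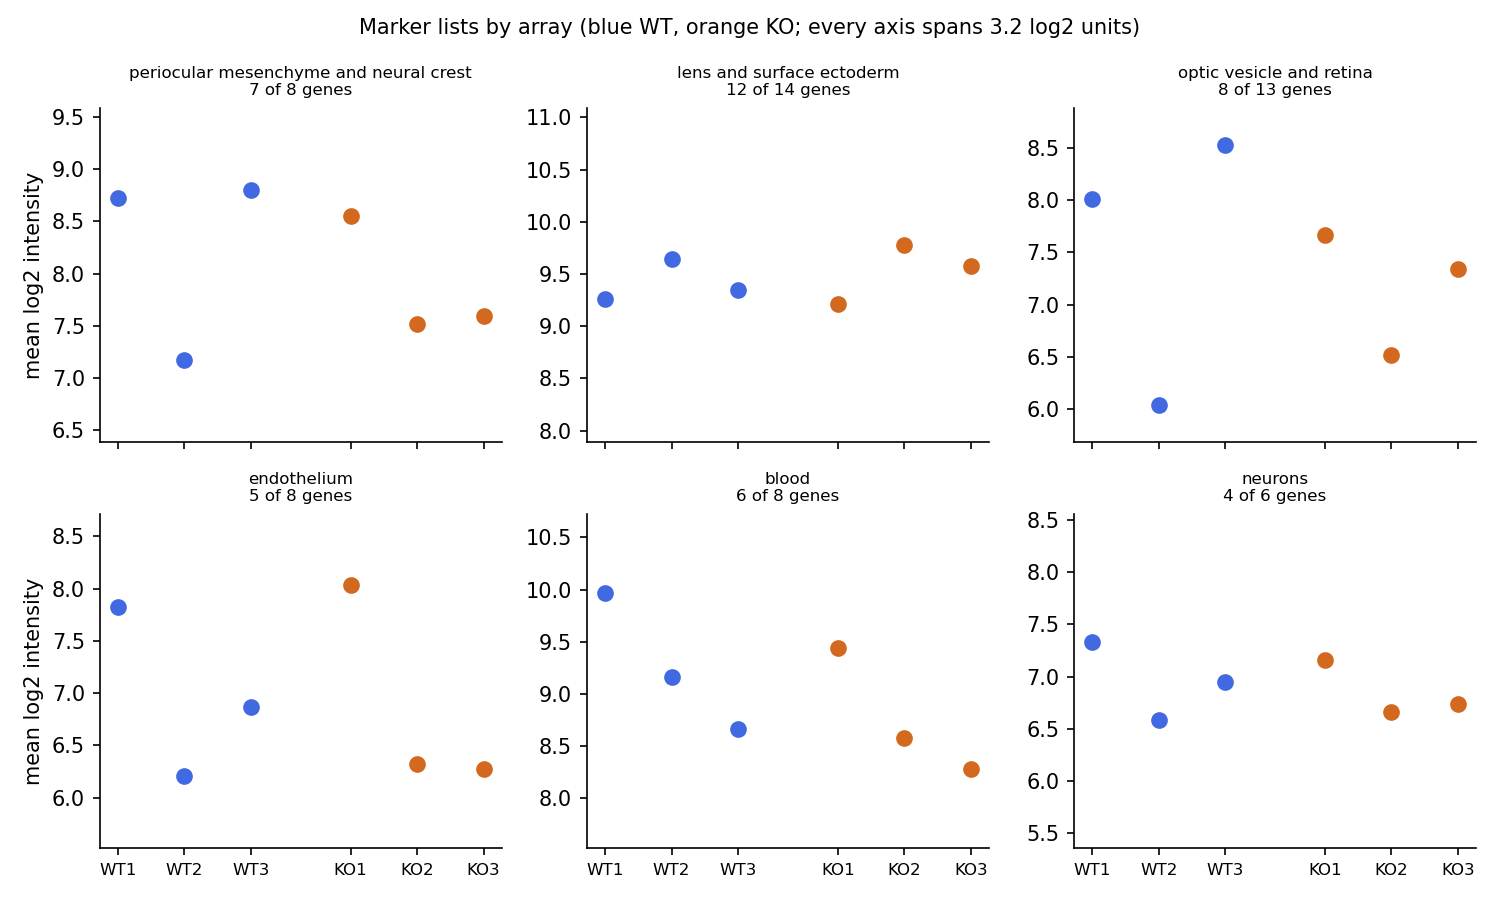
Mean normalized log2 intensity of the tested genes of each marker list (vertical axis, 3.2 log2 units in every panel) on the WT (blue) and KO (orange) arrays. The mesenchyme list is high on WT 1, WT 3 and KO 1 (8.55 to 8.80) and low on the other three (7.17 to 7.59), and the lens and surface ectoderm list is lowest on the former (9.21 to 9.34).

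Candidates were 7255 other genes detected on all arrays, with predicted and clone-like names left out. From these were taken the genes whose pattern over the 6 arrays was most like the mean standardized profile of the members. They were St8sia4, a polysialyltransferase (r = 0.996), Rnf152, a ubiquitin ligase, and Il11ra2 (0.98 each), Vcam1, a cell adhesion molecule, Pmel, a melanosome protein, Zfp81, a zinc finger gene, Jun, an AP-1 subunit, and Ttc13 (0.98 each). With 6 arrays and this many genes, high values of r arise easily, so the list is a description. St8sia4 was at 9.63, 5.92 and 9.00 on the WT arrays and 9.22, 6.83 and 6.66 on the KO arrays. Pmel was at 9.85, 6.16 and 9.31 on the WT arrays and 9.51, 5.97 and 5.75 on the KO arrays. Ttc13 had the same 3 arrays highest over a far smaller span, from 10.34 to 10.54. Il11ra2 has a near-identical gene copy, so its probe may read both.

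Further genes of the crest and mesenchyme were followed in a pair of lists. Of 18 transcription factors, 10 were measured. The KO mean was above the WT mean for 1 and below it for 9, where 49.1% of all tested probes had a lower KO mean. Some of the 9 lay near 0, such as Sox9 (-0.07) and Zeb1 (-0.10), and all share the same arrays, so the counts are a description. Of the 10, 0 passed over all probes and 0 had an unadjusted p below 0.05 (limma), against 0% and 4.49% of all tested probes. Their median log2 fold change was -0.16. The largest differences on the brightest probe were those of Twist2, a close relative of Twist1 (-0.84, interval -2.55 to 0.88), and Snai2, a zinc finger factor of crest cell emigration (0.82, -0.23 to 1.86). Twist2 was detected on 3 WT and 2 KO arrays, and not on KO 2. Lmx1b and Ets1, both among the 9 lower, were each detected on 2 WT arrays and 1 KO array. Prrx2, the paralog of Prrx1, had -0.45 (-1.57 to 0.67), and Foxc2, the paralog of Foxc1, -0.20 (-1.67 to 1.26). Foxc2 had the opposite sign without WT 1 (0.36) and without KO 3 (0.04). Sox10 and Foxd3 were among the factors with no tested probe.

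Values of the factors by array did not all repeat the order of the members. Twist2 was at 7.94, 6.34 and 7.78 on the WT arrays and 8.09, 5.62 and 5.84 on the KO arrays, and Foxc2 at 9.13, 6.70 and 8.20 and at 8.61, 7.50 and 7.32. Both had WT 1, WT 3 and KO 1 highest, as 3 of the 10 factors did, Sox9 being the other. Snai2 was at 7.53, 6.92 and 8.58 on the WT arrays and 8.71, 8.20 and 8.58 on the KO arrays. All 3 KO arrays lay above WT 1 and WT 2, and WT 3 lay among them. Zeb2, a regulator of epithelial-mesenchymal transition, had WT 2, KO 2 and KO 3 highest.

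Of 26 genes for receptors, ligands, matrix and adhesion, 20 were measured. The KO mean was above the WT mean for 6 and below it for 14. Of the 20, 0 passed over all probes and 0 had an unadjusted p below 0.05 (limma), against 0% and 4.49% of all tested probes. At such shares a count of 0 in a list this short says little. Their median log2 fold change was -0.14, and for 1 of the 20, the matrix glycoprotein gene Sparc, the genotypes did not overlap, against 9.82% of all tested probes. On the brightest probe, the largest differences belonged to the fibrillar collagen gene Col5a2 (-0.76, interval -1.91 to 0.39), the mesenchymal cadherin gene Cdh11 (-0.63, -1.94 to 0.69), Pdgfa, which encodes a ligand of Pdgfra (-0.62, -1.88 to 0.63), and Pdgfrb, the second PDGF receptor (-0.51, -1.23 to 0.21). The brightest Col5a2 probe was detected on 3 WT and 2 KO arrays, and not on KO 2. Other probes of Col5a2 gave 0.21, 0.04 and -0.42, those of Cdh11 -0.72 and -0.55, and that of Pdgfa -0.07. The brightest probe of Fn1, the fibronectin gene, gave 0.24, and its other probes 0.82, 0.80 and 1.21, the last above every value on a brightest probe (interval -0.49 to 2.91, limma adjusted p = 0.989). Among the factors, other probes of Tfap2b gave -0.71, -0.81 and -0.32, against -0.15 on the brightest. WT 1, WT 3 and KO 1 were highest for 8 of the 20. Among these 8 were Pdgfrb, at 9.61, 8.75 and 9.20 in WT and 8.97, 8.85 and 8.23 in KO, and Pdgfa, at 13.05, 11.24 and 12.36 in WT and 12.61, 11.61 and 10.56 in KO. The ligand Pdgfa and the receptor Pdgfra thus had opposite sets of high arrays.

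**Figure D4:**
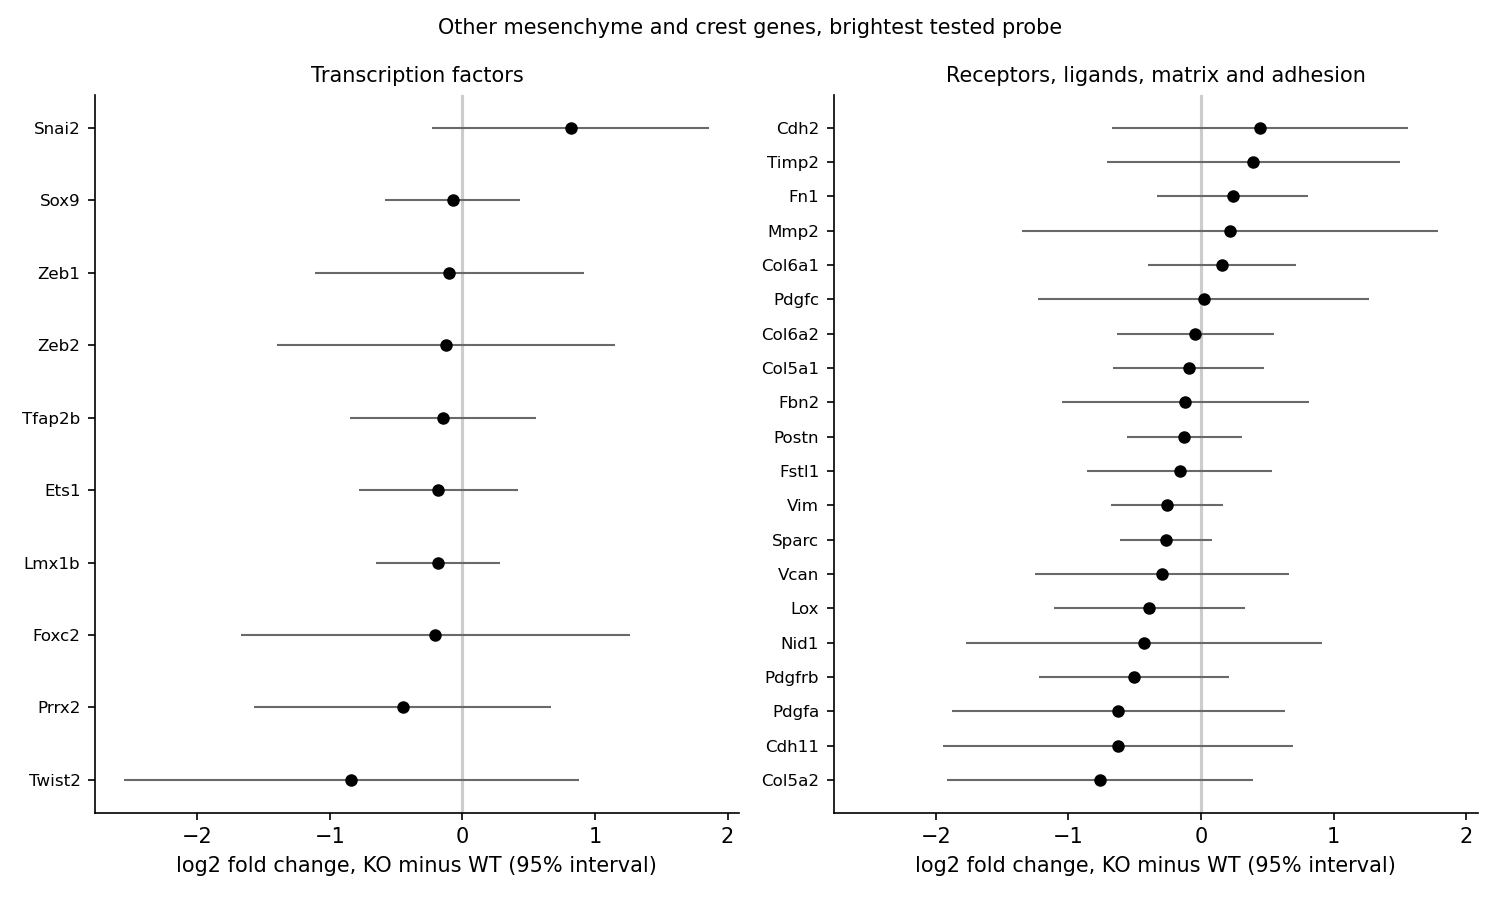
Log2 fold change, KO minus WT, with the 95% limma interval (horizontal axis) for the brightest tested probe of 10 further transcription factors and 20 genes for receptors, ligands, matrix and adhesion. Every interval includes 0, and most points lie below it (9 of 10 and 14 of 20, against 49.1% of all tested probes).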

How the data were processed

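Per the labels' protocols, embryos were frozen, cut at 10 microns and stained with eosin, lens ectoderm was laser-dissected, and 15 ng of RNA went into whole-transcriptome cDNA amplification before biotin labelling. The submitters' processing notes name GenomeStudio. The authors deposited a table with, per probe and array, a linear mean bead intensity, a detection p-value, a number of beads and their standard error, as read from the column names per the file headers. A second deposited table holds processed intensity values with some below 0, by a method not given in the sources used here. Its direction was taken from the probe values; build and annotation are likewise not given. Columns were matched to samples by the array position in the labels, all 6 arrays lying on 1 slide.

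From the intensities, log2 levels were made with neqc (limma 3.58.1, R 4.3.3), which does a normexp background correction using the detection p-values, adds an offset (16 here) and applies quantile normalization. Probes detected at p below 0.05 on at least 3 arrays were fitted as KO minus WT with lmFit and eBayes with a variance trend, two-sided, with Benjamini-Hochberg adjustment over all 20959. Arrays not detecting a tested probe entered at their measured level. Of all probes, 29976 carried 1 symbol in the platform annotation, and 10099 genes were tested. A gene is represented by its brightest tested probe. Correlation p-values are exact, over 720 pairings, two-sided. The fit was tested on simulated data with the same SD for every probe. The members' spread differs from that setting, so the test does not bear on them. The number of arrays limits the precision.

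The members and lists were chosen with earlier results of these data known. Named genes were the members, the 4 genes of each further list with the largest fold change, and the 8 most alike in pattern; other list genes were named after their values were seen. Alternatives covered normalization, the submitters' values (floored at 1), the filter, array weights, the variance trend, the replicate number as a block and leaving out each array. Same-numbered WT and KO arrays deviated together with r = 0.11, 0.14 and -0.01, so the numbers were not taken as pairs.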

Additional observations from a re-analysis of the deposited data

How the results depend on the processing

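Under every alternative run for the genotype comparison, 0 members, 0 further mesenchyme genes and 0 of all tested probes passed. Where the same 20959 probes were fitted, counts at an unadjusted limma p below 0.05 ran from 579 (without KO 3) to 1485 (without WT 3). The main count was 941. With no filter the count was 1961, but over all 46632 probes. The median log2 fold change of the members was -0.57 and lay between -1.23 (without WT 2) and -0.28 (without WT 3) when single arrays were left out. It was -0.86 with array weights, -0.45 and -0.43 under the other normalizations, and 0.05, the value of Prrx1, with the submitters' processed values (floored at 1). With those values, Alx1 (0.40) and Alx4 (0.79), the measured members not detected on every array, moved the most. Whether the floor made this difference was not tested. Directions turned for Alx1 with the submitters' values (0.40), for Alx4 (-1.23 to 0.88 over single arrays left out) with array weights (-0.72), without KO 1 (-0.51), without WT 2 (-1.23) and with its probes averaged (-0.25), and for Prrx1 (-0.056 to 0.17 over single arrays left out) with its probes averaged (-0.53), without KO 1 (-0.02), without KO 2 (-0.02) and without WT 3 (-0.056). Foxc2 turned without WT 1 (0.36) and without KO 3 (0.04). The causes were not tested. The replicate block, the variance trend and the filter leave a probe's fold change as it is by construction. Of the 152 single-gene values that an alternative moved, 141 kept their direction. Pairs of members with a correlation above 0 numbered 10 to 15 of 21 when an array was left out. With the replicate number as a block, 0 probes passed and 986 had an unadjusted p below 0.05. Only 3 of the 6 arrays correlated best with their own number in the other genotype. Dim probes (Foxc1, Alx1 on WT 2 and KO 3, and Alx4 on WT 2) bound the signal and not the transcript.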
